A study of Homo sapiens with 6 samples.

Results

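The collagen prolyl and lysyl hydroxylases were examined as 10 listed genes that encode the enzymes and their non-catalytic partners: P4HA1, P4HA2, P4HA3, P4HB, P4HTM, PLOD1, PLOD2, PLOD3, P3H1 and CRTAP. All 10 were found among the 60675 gene identifiers of the count files, and all 10 passed the filter on low counts that left 15261 genes for testing. The RNA-seq data comprised 6 libraries of MDA-MB-231, a human triple-negative breast cancer cell line with mesenchymal features. 3 libraries came from wells given 100 μM vitamin C (sodium ascorbate) for 3 days, and 3 control libraries came from wells with no vitamin C added. Per the methods, dosing was repeated daily in fresh medium. Each group rests on a single cell line. The methods describe 3 wells per group within an experiment, so the p-values below measure the spread between wells, which may be technical.

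Collagen hydroxylases work in the endoplasmic reticulum on newly made collagen chains. They use iron, oxygen and 2-oxoglutarate, and vitamin C keeps their iron in the reduced state. Prolyl 4-hydroxylation stabilises the collagen triple helix, whereas hydroxylysine, made by the PLOD enzymes, carries sugars and sets the chemistry of the crosslinks between collagen molecules. Some genes of this family are textbook targets of the hypoxia-inducible transcription factors. These factors are themselves marked for degradation by a related group of oxygen- and ascorbate-dependent prolyl hydroxylases. The measurements here are of mRNA only.

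The core of the hypoxia response element, ACGTG or GCGTG, was searched in RefSeq promoters on GRCh38.p14, as the 250 bases just before the annotated start, on both strands. The stretches that hold it in the 3 members whose mRNA fell are shown, so that the number and spelling of the cores can be compared. They are written 5′ to 3′ on the strand of the gene, and capitals mark the core, so that CACGT is ACGTG read on the opposite strand. The P4HA1 stretch lies at chr10:73096936-73096964 (minus strand), those of PLOD2 at chr3:146161374-146161403 and chr3:146161314-146161342 (minus strand), and the whole CRTAP promoter at chr3:33113764-33114013 (plus strand).
P4HA1: tgtgatcgagctCACGTagcgagggctgc
PLOD2, farther from the start: agcgctGCGTGagcctccaCACGTagccgc
PLOD2, nearer to the start: caaacagtccagACGTGgggcccaggagg
CRTAP: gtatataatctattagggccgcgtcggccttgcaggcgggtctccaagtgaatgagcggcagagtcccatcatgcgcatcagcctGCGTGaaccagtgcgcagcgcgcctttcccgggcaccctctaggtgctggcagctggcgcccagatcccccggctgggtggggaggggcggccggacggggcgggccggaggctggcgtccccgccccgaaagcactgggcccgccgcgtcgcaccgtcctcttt

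The P4HA1 promoter held 1 core, an ACGTG on the opposite strand 86 bases before the start. PLOD2 held 3, a GCGTG at 213 bases, an ACGTG on the opposite strand at 200 bases and an ACGTG at 146 bases before the start. CRTAP held 1 GCGTG at 165 bases, and the P4HA2 window held none. A RefSeq promoter was matched for 9 of the 10 members, P4HA3 being the exception, and 6 of these 9 held at least 1 core, against 43.2% of all 35116 promoters of the same length. The windows are not alike in base composition: 8 of the 9 had 65.2% to 72.4% GC and that of P4HA2 54.8%, against a median of 58% over all promoters, and the cores are themselves rich in G and C. PLOD1 held 2, both GCGTG, at 68 and 25 bases, P4HB held a GCGTG at 89 bases and P3H1 a GCGTG at 220 bases, while P4HTM and PLOD3 held none. The ACGTG form was present in 18.5% of all promoters and, among the 9, in P4HA1 and PLOD2. GCGTG was present in 32.2% of all promoters, and 3 or more cores, as in PLOD2, were present in 7.76%. In GENCODE 44, exons of the same gene reach into these windows by 108 bases at P4HA1 and over all 250 bases at PLOD2, P4HA2 and PLOD3. They cover 176 bases at P4HB, 56 at P3H1, 23 at PLOD1 and 19 at P4HTM, but do not reach in at CRTAP. The marked cores of P4HA1 and PLOD2 thus lie in annotated exon. The P4HA2 window, at 132227092 to 132227341, lies inside the gene, which reaches 132295315. So does that of PLOD2, at 146161185 to 146161434 in a gene that reaches 146163725. The PLOD1 window, at 11934467 to 11934716, lies inside a gene that starts at 11934205. The windows of PLOD3 and P4HB also lie inside their genes. The start in use here is therefore not known. These matches describe letters in a window and do not show binding.

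Reads assigned to genes numbered 13434130 to 19553914 per vitamin C library and 17664345 to 22373591 per control library. Unmapped reads made up 24.7% to 49.5% of the vitamin C libraries and 24.2% to 34.4% of the control libraries. The labelled cell line was checked by its markers. The mesenchymal filament gene VIM lay at 1186 to 1311 CPM in vitamin C libraries and 1227 to 1316 CPM in controls. CPM is the count per 1000000 reads of the TMM-normalised library. ESR1, the oestrogen receptor, had 0 counts throughout, and PGR, the progesterone receptor, had 0 to 4 per library. The summed level of 8 markers of other cell types was 38.7 to 45.3 CPM in vitamin C libraries and 23.2 to 27.8 CPM in controls. Most of it was the epithelial gene EPCAM, at 34.4 to 35.5 CPM with vitamin C and 21.2 to 23.2 CPM in controls (edgeR adjusted p = 0.00343). Of the 8, 4 had enough counts to be tested and 2 of these, EPCAM and PECAM1, were called higher. CDH1, also an epithelial gene, had overlapping groups and was not called (log2 fold change 1.33, edgeR adjusted p = 0.113). Of the fibroblast genes, DCN was at 0 in all 6 libraries. LUM had 8 to 25 reads per library and was tested but not called (edgeR adjusted p = 0.917). The part of the marker difference in the results below was not tested, and in bulk RNA more cells of a type cannot be told apart from more RNA per cell.

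Of the 10 members, 3 fell in vitamin C-treated cells, P4HA1, PLOD2 and CRTAP, and none rose, by the quasi-likelihood test of edgeR at a Benjamini-Hochberg adjusted p below 0.05 over all 15261 genes. The largest change was in P4HA1, the most abundant catalytic subunit of prolyl 4-hydroxylase in these libraries. Across all genes tested, 3.48% were called lower and 3.6% higher. With upper-quartile scaling the same calls numbered 377 lower and 687 higher, 64.6% of them higher, against 50.8% with the scaling used here. At an unadjusted p below 0.05, 4 members were lower and 2 higher, where 13.1% of all genes were lower and 14.3% higher. DESeq2, the second tool of the study, called 3 members lower and none higher, with 6.36% of its 13472 genes lower and 4.35% higher. The median log2 fold change of the members was -0.12, beside 0.02 for all genes tested.

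**Figure D1:**
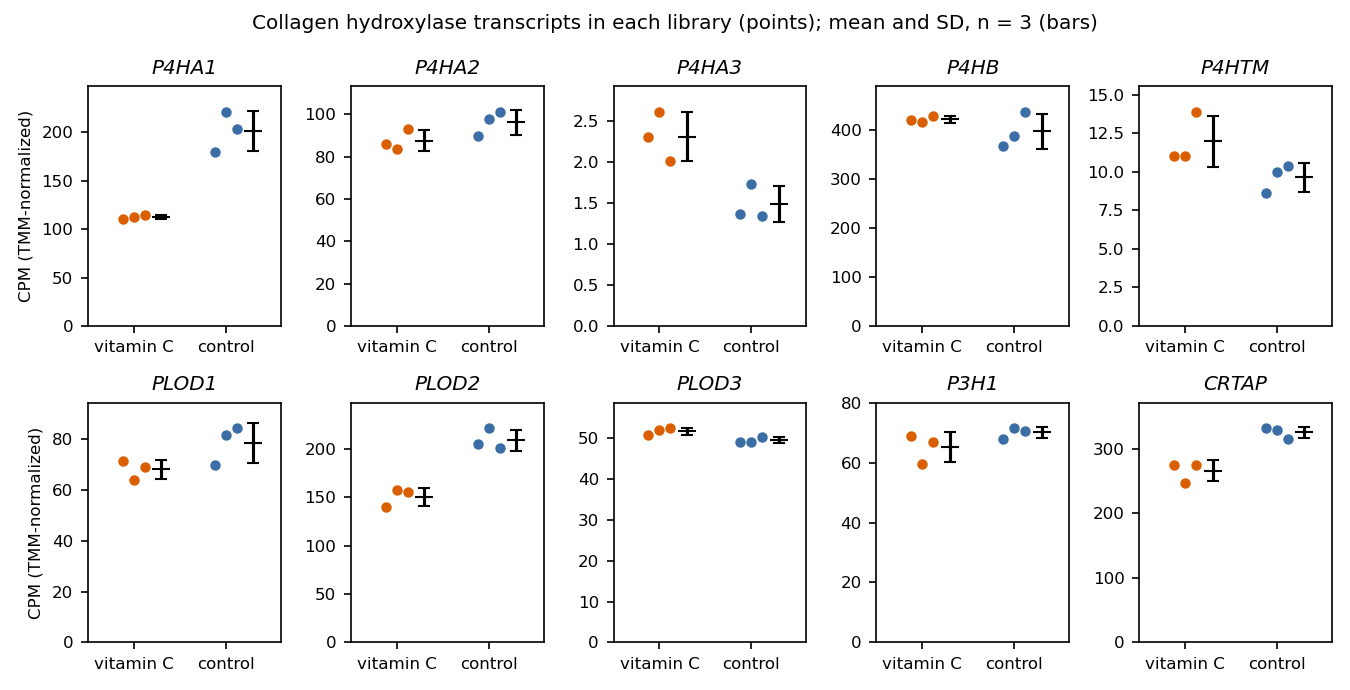
Level of each of the 10 hydroxylase genes in CPM (y axis, linear from 0) in the 3 vitamin C libraries (left) and the 3 control libraries (right) of MDA-MB-231 cells, with points for libraries and bars for the mean and SD. The vitamin C points lie below all control points for P4HA1, PLOD2 and CRTAP and above all control points for P4HA3, P4HTM and PLOD3.

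Without regard to any test, all 3 vitamin C libraries lay below all 3 controls for 3 of 10 members, against a background of 16.6% of genes, and above them for 3 of 10, against a background of 15.7%. The other 4 members had overlapping groups. Both counts are of few genes, and the sizes of the changes behind them differed widely, as the values of each member show.

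Prolyl 4-hydroxylase is a tetramer of a catalytic alpha subunit, encoded by P4HA1, P4HA2 or P4HA3, and the beta subunit P4HB. P4HA1 (ENSG00000122884, chromosome 10, 73007217 to 73096974, minus strand, GRCh38) had 111, 113 and 115 CPM in the vitamin C libraries, against 180, 221 and 204 CPM in the controls. The vitamin C libraries lay within 4 CPM of each other and every one was far below the lowest control. Means were 113 ± 1.97 CPM with vitamin C and 202 ± 20.9 CPM in controls (SD, n = 3 each), so that P4HA1 mRNA fell by 44.2%. The log2 fold change was -0.84 (SE 0.08, 95% interval -1.03 to -0.66, edgeR adjusted p = 0.000829), and P4HA1 ranked 9 of 15261 genes by p-value. These levels of 111 to 115 CPM came from vitamin C libraries whose unmapped share spanned 24.7% to 49.5%, against 24.2% to 34.4% in controls. The part of the unmapped share in the P4HA1 difference was not tested.

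P4HA2, the second alpha isoform (ENSG00000072682, chromosome 5, 132190147 to 132295315, minus strand), had 86.1, 83.5 and 93.0 CPM with vitamin C, against 89.8, 97.9 and 101 CPM in controls. The highest vitamin C library lay above the lowest control, and the log2 fold change of -0.14 (95% interval -0.31 to 0.03) did not pass the test (edgeR adjusted p = 0.277). P4HA3, the least abundant isoform (ENSG00000149380, chromosome 11, 74235801 to 74311640, minus strand), had 2.30, 2.61 and 2.01 CPM with vitamin C, against 1.37, 1.73 and 1.34 CPM in controls. All 3 vitamin C libraries were above all controls, but these levels rest on 24 to 40 reads per library. The log2 fold change of 0.62 (95% interval 0.13 to 1.10) did not pass after adjustment (edgeR adjusted p = 0.105). P4HA3 shares 166 exonic bases with PPME1 on the opposite strand, a gene with 742 to 1924 reads per library, and without knowing whether the counting used strand, reads of either gene there cannot be told apart. PPME1 itself fell (log2 fold change -0.49, edgeR adjusted p = 0.0102).

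P4HB, which is also protein disulfide isomerase and holds the alpha subunits in the endoplasmic reticulum (ENSG00000185624, chromosome 17, 81843159 to 81860856, minus strand), had 421, 416 and 429 CPM with vitamin C. Controls had 367, 389 and 437 CPM, a wider spread that enclosed the vitamin C values. The log2 fold change of 0.08 (95% interval -0.09 to 0.26) did not pass the test (edgeR adjusted p = 0.523). P4HTM, a transmembrane prolyl 4-hydroxylase of the same membrane that acts on the hypoxia-inducible factor rather than on collagen (ENSG00000178467, chromosome 3, 48989889 to 49007153, plus strand), had 11.0, 11.0 and 13.9 CPM with vitamin C, against 8.60, 9.99 and 10.4 CPM in controls. The groups did not overlap, with vitamin C higher, yet the log2 fold change of 0.32 (95% interval 0.02 to 0.61) did not pass after adjustment (edgeR adjusted p = 0.156). P4HTM shares 92 exonic bases on its own strand with WDR6, a gene with 993 to 1525 reads per library, and reads there cannot be told apart. Of the other members, P4HA1, P4HA2, P4HB, CRTAP and PLOD3 share 47 to 548 exonic bases with a gene on the opposite strand, which had 8 to 161 reads per library except for ZNHIT1 at PLOD3, with 296 to 563.

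**Figure D2:**
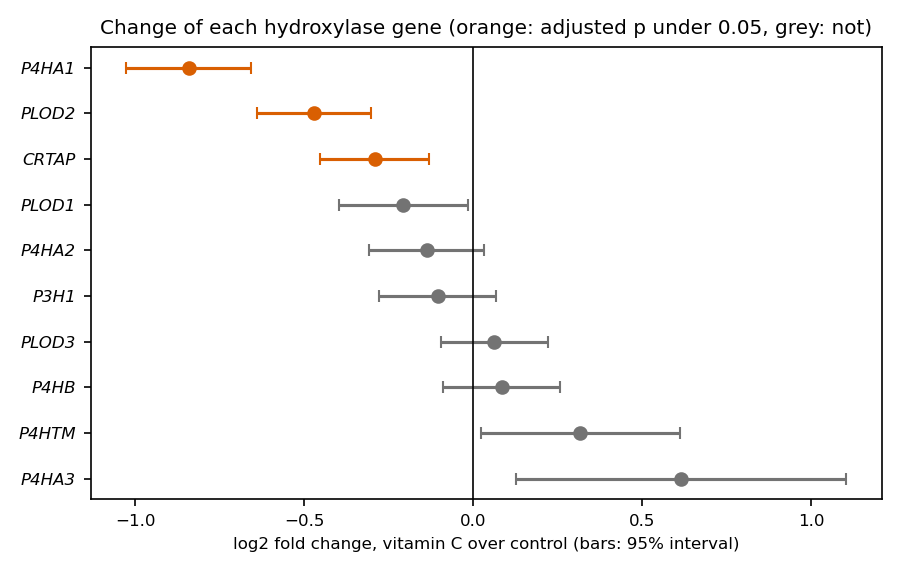
Log2 fold change (x axis, vitamin C over control) of the 10 members with 95% intervals from edgeR, in orange where the adjusted p is below 0.05 and in grey where it is not. P4HA1 at -0.84, PLOD2 at -0.47 and CRTAP at -0.29 passed the test, and the other 7 did not.

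The lysyl hydroxylases are encoded by PLOD1, PLOD2 and PLOD3. PLOD2, which hydroxylates lysines of the collagen telopeptides (ENSG00000152952, chromosome 3, 146035139 to 146163725, minus strand), had 140, 157 and 155 CPM with vitamin C, against 205, 222 and 201 CPM in controls. The highest vitamin C library lay well below the lowest control. PLOD2 mRNA averaged 151 ± 9.30 CPM with vitamin C and 209 ± 10.9 CPM in controls (SD, n = 3 each) and fell by 27.9%. The log2 fold change was -0.47 (SE 0.08, 95% interval -0.64 to -0.30, edgeR adjusted p = 0.0102). Without control replicate 2 PLOD2 no longer passed (log2 fold change -0.43, edgeR adjusted p = 0.0572). The genes called lower over all genes then numbered 61, against 531 with all 6 libraries.

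PLOD1, which hydroxylates lysines within the helix (ENSG00000083444, chromosome 1, 11934205 to 11975538, plus strand), had 71.5, 64.1 and 68.9 CPM with vitamin C, against 69.7, 81.6 and 84.3 CPM in controls. The groups overlapped through vitamin C replicate 1 and control replicate 1, and the log2 fold change of -0.21 (95% interval -0.40 to -0.01) did not pass after adjustment (edgeR adjusted p = 0.156). PLOD3, which also transfers glucose and galactose to hydroxylysine (ENSG00000106397, chromosome 7, 101205977 to 101218420, minus strand), had 50.7, 51.9 and 52.5 CPM with vitamin C, against 49.1, 49.1 and 50.4 CPM in controls. The groups lay next to each other without overlap, and the log2 fold change of 0.06 (95% interval -0.10 to 0.22) did not pass (edgeR adjusted p = 0.613).

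P3H1, the prolyl 3-hydroxylase, and CRTAP, a non-catalytic partner, form a complex with cyclophilin B that acts on fibrillar collagens. CRTAP (ENSG00000170275, chromosome 3, 33114014 to 33147773, plus strand) had 276, 248 and 276 CPM with vitamin C, against 332, 330 and 316 CPM in controls. All vitamin C libraries were lower, with means of 266 ± 16.3 CPM with vitamin C and 326 ± 8.69 CPM in controls (SD, n = 3 each), and CRTAP mRNA fell by 18.3%. The log2 fold change was -0.29 (SE 0.07, 95% interval -0.45 to -0.13, edgeR adjusted p = 0.0403), close to the threshold. The call was lost on leaving out any single library except vitamin C replicate 3. The edgeR adjusted p was 0.130, 0.132 and 0.0596 without control replicates 1, 2 and 3. It was 0.0875 and 0.0822 without vitamin C replicates 1 and 2. In these omissions the log2 fold change of CRTAP stayed between -0.32 and -0.24. Over all genes, 59 were called lower without control replicate 1 and 61 without control replicate 2. That number was 958 without vitamin C replicate 3 and 531 with all 6 libraries. P3H1 (ENSG00000117385, chromosome 1, 42746335 to 42767084, minus strand) had 69.0, 59.4 and 67.0 CPM with vitamin C, against 68.0, 71.5 and 70.7 CPM in controls. Its groups overlapped and the log2 fold change of -0.10 (95% interval -0.28 to 0.07) did not pass (edgeR adjusted p = 0.420).

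To compare levels between genes, CPM was divided by the exonic length of each gene in kilobases. P4HA1 had 36.4 ± 0.637 CPM per kilobase with vitamin C and 65.2 ± 6.76 CPM per kilobase in controls (SD, n = 3 each), which put it above the other 9 members in controls. With vitamin C it stood below P4HB at 37.9 ± 0.595 CPM per kilobase, by more than the SDs, and P4HB and CRTAP at 39.99 ± 2.45 CPM per kilobase did not differ beyond their spread. CRTAP at 48.9 ± 1.30 and P4HB at 35.7 ± 3.23 CPM per kilobase followed P4HA1 in controls. PLOD1 at 12.8 ± 0.702, PLOD2 at 10.4 ± 0.641, P3H1 at 9.63 ± 0.749, PLOD3 at 9.12 ± 0.161 and P4HA2 at 8.64 ± 0.483 CPM per kilobase followed in vitamin C-treated cells, where P3H1 was within the spread of both PLOD2 and PLOD3. P4HTM at 1.57 ± 0.217 and P4HA3 at 0.578 ± 0.0753 CPM per kilobase were lowest. In controls PLOD1 at 14.8 ± 1.46 and PLOD2 at 14.4 ± 0.747 CPM per kilobase did not differ beyond their spread. The order depends on the length used: over the longest coding transcript alone, P4HB came first, at 123 CPM per kilobase with vitamin C and 116 CPM per kilobase in controls.

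**Figure D3:**
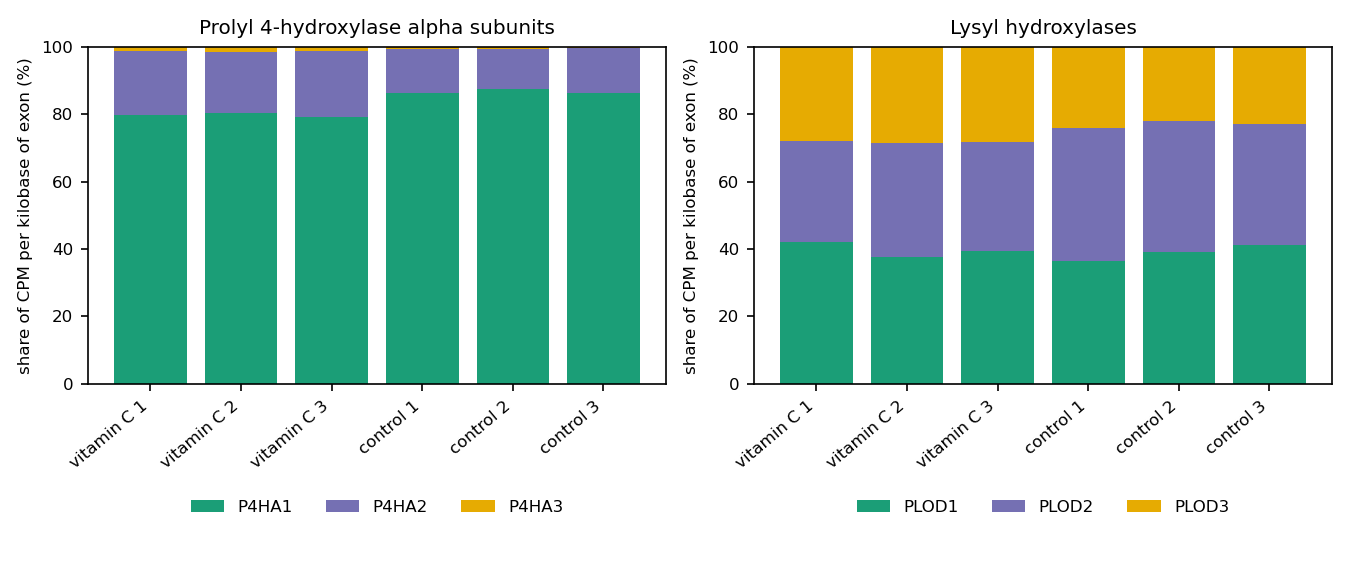
Stacked bars of the share of each isoform in the summed CPM per kilobase of its family (y axis, percent), 1 bar per library with vitamin C libraries left of controls, for the prolyl 4-hydroxylase alpha subunits (left panel) and the lysyl hydroxylases (right panel). On average P4HA1 held 79.8% with vitamin C and 86.8% in controls, and PLOD2 held 32.1% with vitamin C and 38.0% in controls.

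The makeup of the alpha subunit mRNA was also compared between the groups. P4HA1 held 79.8%, 80.4% and 79.3% of the summed per-kilobase level of the 3 isoforms with vitamin C, against 86.3%, 87.6% and 86.4% in controls. P4HA2 held 18.9% ± 0.723 with vitamin C and 12.7% ± 0.754 in controls (SD, n = 3 each), and over the longest coding transcript 32.1% with vitamin C and 22.9% in controls. The 3 vitamin C libraries did not overlap the controls in either share. The summed alpha level was 120.5% ± 1.5 of that of P4HB with vitamin C and 210.8% ± 20.7 in controls. Over the longest coding transcript these ratios were 48.7% with vitamin C and 80.2% in controls, so the level of the ratio depends on the length while vitamin C is lower under both.

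Among the lysyl hydroxylases, PLOD2 held 30.1%, 33.8% and 32.5% of the summed level with vitamin C, against 39.3%, 38.9% and 35.9% in controls. PLOD3 held 28.2% ± 0.346 with vitamin C and 23.1% ± 1.03 in controls, and PLOD1 held 39.6% ± 2.17 with vitamin C and 38.9% ± 2.28 in controls (SD, n = 3 each), a difference within the spread. P3H1 stood at 24.1% ± 0.522 of the level of CRTAP with vitamin C and at 21.2% ± 0.946 in controls, and over the longest coding transcript at 53.8% with vitamin C and 47.4% in controls. These shares restate the levels above and were not tested on their own.

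The genes whose pattern over the 6 libraries was most like that of P4HA1 were found by the root mean square difference between log2 CPM profiles, each centred on its own mean, among 10140 well-counted genes. They were PFKFB4, a regulator of glycolysis, at 0.119, KDM7A, a histone demethylase, at 0.124, PGK1, a glycolytic kinase, at 0.129, PDK1, a kinase of pyruvate dehydrogenase, at 0.132 and H2BC6, a histone gene, at 0.141. The median over all compared genes was 0.431. For PLOD2 the closest were GMPR at 0.0593, WDR18 at 0.0656, LDHA, the lactate dehydrogenase subunit, at 0.0668, and COL8A1 and EGLN1, both at 0.0691, with a median of 0.261. P4HA1 and PLOD2 themselves differed by 0.198, and PLOD2 and CRTAP by 0.134. The measure takes in the difference between groups, so it gives similarity of values in these 6 libraries and nothing more.

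A further 5 lists of related genes were counted with the same test, without any test of a list. For comparison, edgeR called 3.48% of all genes lower and 3.6% higher. At an unadjusted p below 0.05 these shares were 13.1% and 14.3%. Of 10 tested procollagen folding and modification partners, none was called lower or higher by edgeR, with 2 lower and none higher at an unadjusted p below 0.05, and 1 lower and none higher by DESeq2. The 2 of 10 stand beside the 13.1% of all genes lower at that unadjusted threshold. The median log2 fold change of these partners was -0.09. The 2 most abundant over all 6 libraries were PPIB, the cyclophilin of the P3H1 complex, at 333 ± 18.7 CPM with vitamin C and 354 ± 29.1 CPM in controls, and KDELR2, a retrieval receptor, at 181 ± 46.4 CPM with vitamin C and 236 ± 26.0 CPM in controls (SD, n = 3 each). KDELR2 was the partner called lower by DESeq2 (log2 fold change -0.40, DESeq2 adjusted p = 0.0437). It was also 1 of the 2 lower at an unadjusted p below 0.05, though its groups overlapped (edgeR adjusted p = 0.123). In vitamin C libraries alone COLGALT1, a collagen galactosyltransferase, stood above KDELR2, at 194 ± 17.7 CPM, against 199 ± 7.63 CPM in controls. Of 11 disulfide isomerases and oxidases of the endoplasmic reticulum, 1 fell, TMX1 (log2 fold change -0.37, edgeR adjusted p = 0.0352), and none rose, with 3 lower and none higher at an unadjusted p below 0.05, and 2 lower and none higher by DESeq2. The median of this list was -0.11. The number of this list called lower was 0 without control replicate 1 or 2 or vitamin C replicate 1 or 2, 2 without control replicate 3 and 3 without vitamin C replicate 3. Over all genes these omissions gave 59 to 958 lower, against 531 with all 6 libraries.

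Of 11 protein hydroxylases that act outside collagen, 3 fell and none rose by edgeR, with 5 lower and none higher at an unadjusted p below 0.05, and 3 lower and none higher by DESeq2. The 5 of 11 stand beside 13.1% of all genes. Those called by edgeR were EGLN3 (log2 fold change -1.29, edgeR adjusted p = 0.00304) and EGLN1 (-0.51, edgeR adjusted p = 0.0067), both prolyl hydroxylases of the hypoxia-inducible factor, and OGFOD1, a ribosomal prolyl hydroxylase (-0.37, edgeR adjusted p = 0.0353). EGLN2, of the same family as EGLN1 and EGLN3, was not called (0.18, edgeR adjusted p = 0.377). EGLN1 averaged 169 ± 2.88 CPM with vitamin C and 241 ± 15.0 CPM in controls (SD, n = 3 each). The median of this list was -0.19, and 2 of its genes were called lower on leaving out any single library except vitamin C replicate 3.

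The collagen chains are the substrates of these enzymes. Of 18 tested chains, 5 rose and 1 fell by edgeR and equally many by DESeq2, and their median log2 fold change was 0.32. Over all genes, edgeR called 3.6% higher and 3.48% lower. At an unadjusted p below 0.05, 8 chains were higher and 1 lower, where 14.3% of all genes were higher and 13.1% lower. The number of chains called higher by edgeR was 1 without control replicate 1, 2 without control replicate 2 and 3 without any single vitamin C replicate. Over all genes, 69 were called higher without control replicate 1 and 81 without control replicate 2. That number was 942 without vitamin C replicate 3 and 549 with all 6 libraries. COL12A1, a fibril-associated chain, averaged 372 ± 9.60 CPM with vitamin C and 262 ± 15.2 CPM in controls (log2 fold change 0.51, edgeR adjusted p = 0.0067). COL1A2, a chain of type I collagen, had 9.39 ± 4.51 CPM with vitamin C and 2.73 ± 0.970 CPM in controls (log2 fold change 1.78, edgeR adjusted p = 0.0192). COL8A1, of the short-chain collagens, fell (log2 fold change -0.52, edgeR adjusted p = 0.00674).

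Of 20 tested hypoxia-induced genes outside the hydroxylases, 16 fell and none rose by edgeR or DESeq2. At an unadjusted p below 0.05, 17 were lower and 1 higher, and the median log2 fold change was -0.64. Over all genes, edgeR called 3.48% lower and 3.6% higher, and DESeq2 6.36% lower and 4.35% higher. At the unadjusted threshold these shares were 13.1% and 14.3%. Of the 20 listed genes, 7 had been picked by the study from these same libraries and are no independent evidence of a direction. Among the other 13, 9 fell and none rose. The whole list was chosen with earlier results of these data known, so these 13 are not independent evidence either. Without control replicate 2, 10 of the list were called lower, while 61 were over all genes, against 531 with all 6 libraries. The 3 with the smallest p-values were BNIP3, a mitophagy receptor (-1.24, edgeR adjusted p = 3.44e-05), ADM, the vasodilator peptide adrenomedullin (-1.24, edgeR adjusted p = 0.000254), and PDK1 (-0.99, edgeR adjusted p = 0.000289). All 3 are among the 7 genes picked by the study. Of the other 13, whose median was -0.48, those with the smallest p-values, named after their values were seen, were ALDOA, a glycolytic aldolase (-0.57, edgeR adjusted p = 0.00651), VEGFA, the vascular growth factor (-0.63, edgeR adjusted p = 0.0067), and FAM162A (-0.81, edgeR adjusted p = 0.0067). MXI1 (0.38, edgeR adjusted p = 0.146), ENO1 (0.05, edgeR adjusted p = 0.769) and LOX (0.04, edgeR adjusted p = 0.822) went the other way and were not called.

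**Figure D4:**
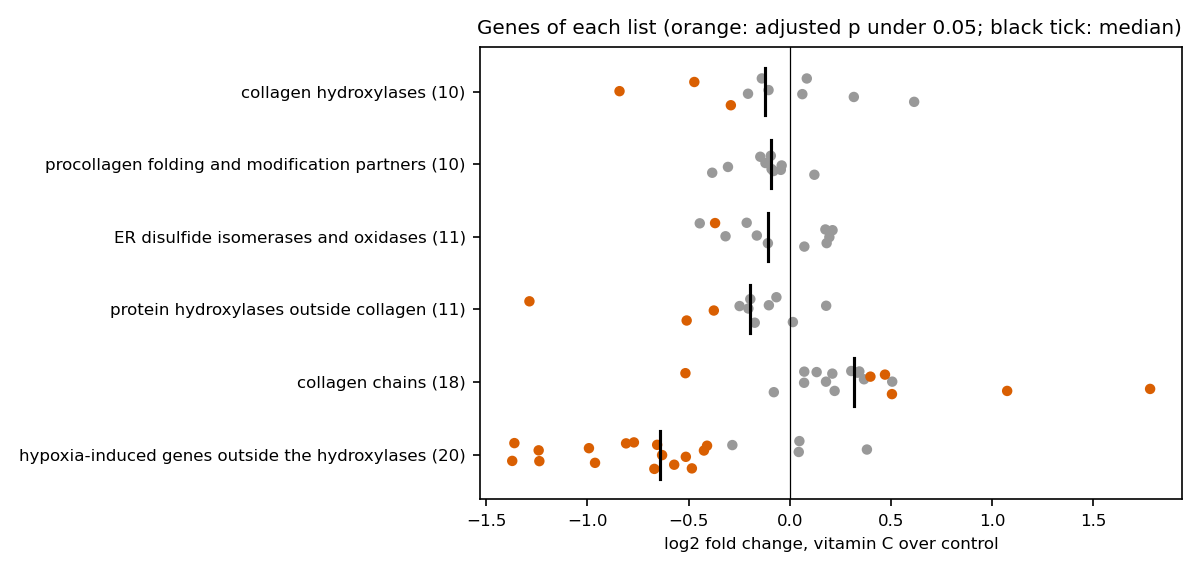
Log2 fold change (x axis, vitamin C over control) of every tested gene in the 10 members and the 5 related lists, in orange where the edgeR adjusted p is below 0.05, with a black tick at the median. The medians are -0.12 for the members, 0.32 for collagen chains and -0.64 for hypoxia-induced genes.

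The calls of the members were recomputed under 17 other settings of scaling, filter, test and library choice. P4HA1 passed in all 17, with log2 fold changes of -0.92 to -0.77. PLOD2 passed in 16 and CRTAP in 9. P4HA3 passed in none, with adjusted p of 0.0665 to 0.270.

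**Figure D5:**
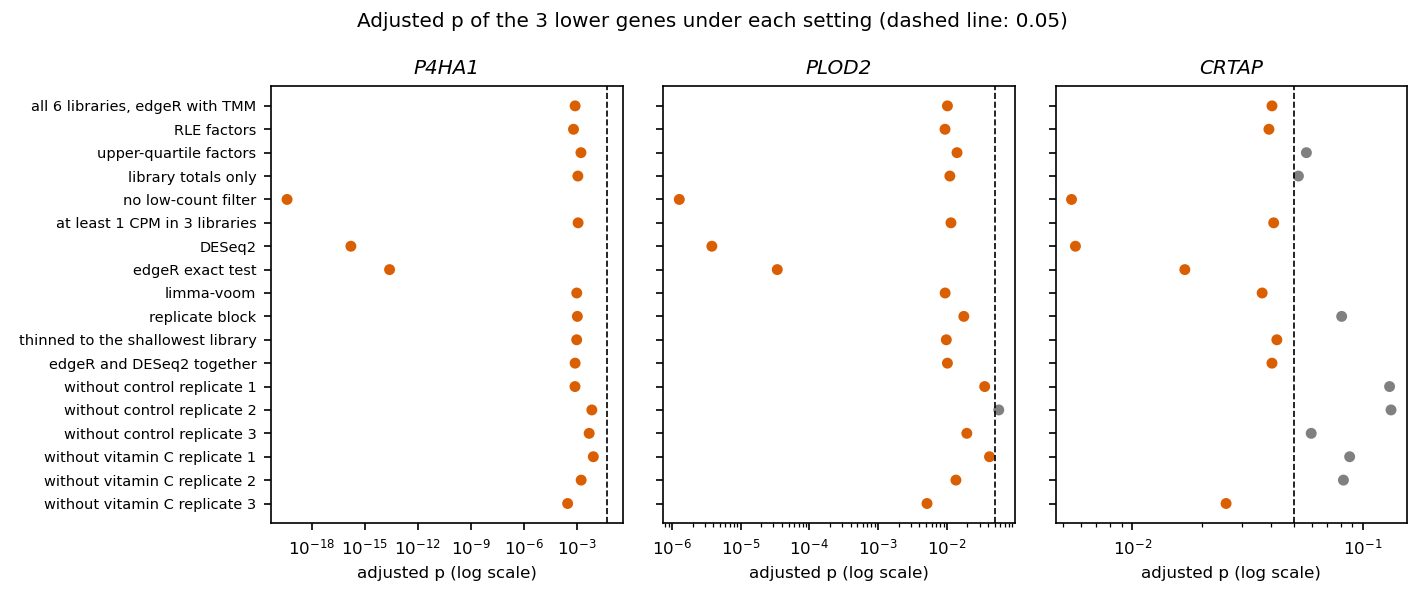
Adjusted p-value (x axis, log scale) of P4HA1, PLOD2 and CRTAP, 1 panel each, under the analysis reported here (top) and the 17 other settings, with 0.05 as a dashed line. P4HA1 stays below 0.05 in every setting, PLOD2 in 16 of 17 and CRTAP in 9 of 17.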

How the data were processed

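RNA was measured in 3 vitamin C and 3 control wells, with groups and replicate numbers taken from the sample labels. The methods describe ribosomal RNA depletion and paired-end sequencing. The submitters' processing notes name CASAVA 1.4, Trim Galore and STAR with build hg38. Raw, unnormalised counts for each Ensembl gene were deposited by the authors. For the STAR version, the annotation release and whether counting used strand, nothing was given in the sources used here. A table of all samples with identical values was not used. Each file's 4 summary lines, 50.6% to 69.7% of reads, were left out.

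Symbols, positions and lengths came from GENCODE 44, which matched 56558 of 60675 identifiers. Counts were tested in R 4.3.3 with edgeR 4.0.16 (filterByExpr with a minimum count of 10, TMM factors, glmQLFit and glmQLFTest, Benjamini-Hochberg adjustment), with DESeq2 1.42.0 and limma-voom 3.58.1 as alternatives. TMM factors were 0.972 to 1.02. The scripts were tested on simulated data. CPM used TMM library sizes. Levels per kilobase used the union of exons, and shares were not tested. Replicate pairs all differed by more than sampling noise.

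The members and lists were chosen with earlier results of these data known. Named genes were all 10 members, up to 3 called genes of smallest p-value per list (the 2 most abundant where none was called), and the 5 genes of closest pattern to P4HA1 and to PLOD2, with a mean count of 100 as the minimum.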

Additional observations from a re-analysis of the deposited data

How the results depend on the processing

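Over the 10 members and 17 alternatives, 161 of 170 recomputed results kept their direction and side of the threshold, 9 lost the call, none gained it and none reversed. Leaving out 1 library at a time, the members called lower numbered 1 to 3, with 1 left without control replicate 2, and none was called higher. The same omissions gave 0 to 1 folding partners lower, 0 to 3 disulfide isomerases lower, 2 to 3 protein hydroxylases outside collagen lower, 1 to 5 collagen chains higher and 10 to 16 hypoxia-induced genes lower. DESeq2 called 1 folding partner and 2 disulfide isomerases lower. CRTAP also lost its call with upper-quartile factors (adjusted p = 0.0568) and with library totals alone (adjusted p = 0.0525). The cause was not tested.

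Deviations from the group means were compared between same-numbered libraries. They correlated at 0.0377, -0.146 and -0.0985, and those of differently numbered libraries at -0.033 to 0.168. With 3 libraries per group these values cannot tell whether wells were handled in pairs. With the replicate block, 2 members were called lower, CRTAP having an edgeR adjusted p of 0.0808, and 338 genes were lower and 393 higher, against 531 and 549 without it.

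Over all genes, the exact test of edgeR called 911 lower and 1022 higher, DESeq2 857 and 586, and no low-count filter 1166 and 1079. Omitting control replicate 1 gave 59 and 69, control replicate 2 61 and 81, control replicate 3 388 and 305, vitamin C replicate 1 157 and 231, vitamin C replicate 2 231 and 272, and vitamin C replicate 3 958 and 942.

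With the length of the longest coding transcript, the shares in vitamin C libraries were 66.2% for P4HA1, 32.1% for P4HA2, 1.71% for P4HA3, 30.7% for PLOD1, 44.8% for PLOD2 and 24.5% for PLOD3, the alpha sum was 48.7% of P4HB, and P3H1 was 53.8% of CRTAP. In control libraries the shares were 76.4% for P4HA1, 22.9% for P4HA2, 0.707% for P4HA3, 29.2% for PLOD1, 51.4% for PLOD2 and 19.4% for PLOD3, the alpha sum was 80.2% of P4HB, and P3H1 was 47.4% of CRTAP. Each share or ratio differed between the groups in the same direction as with the exonic length. The depth of 24 to 40 reads per library limits what can be said of P4HA3.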
